A study of Mus musculus with 4 samples.

Results

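The genes described here are 7 members of the thioredoxin, heme oxygenase and peroxiredoxin group: Hmox1, Txnrd1, Txn1, Srxn1, Nqo1, Prdx1 and Pgd. They were named by gene symbol and chosen with earlier results of these data known. All probe sets that the platform annotation assigns to a member were taken, which gave 11 of the 12488 probe sets on the array. Of these, 9 carried 1 gene symbol and covered 6 of the 8251 genes so named. The other 2 listed Prdx1 together with Gm21399, a pseudogene with the synonym Prxi-ps2, so their signal cannot be assigned to Prdx1 alone, and they were left out of gene counts. The samples were whole lungs from the inbred mouse strain C57BL/6J, pooled into 4 groups and read on 1 Affymetrix MG_U74Av2 array per pool. The first pool, titled 0 h, had no exposure, and the others were collected at 6, 18 and 90 h after the mice breathed hexamethylene diisocyanate (HDI) as an aerosol of 10 mg per cubic metre. HDI is a reactive chemical used in polyurethane coatings. The labels state neither how many mice each pool held, nor their age and sex, nor how long the exposure lasted. With 1 array per pool no test could be made, and every fold describes these arrays.

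These proteins form the part of the cell's defence that runs on thioredoxin and on heme breakdown. Peroxiredoxins remove hydrogen peroxide through a reactive cysteine, thioredoxin (Txn1) reduces them again, and thioredoxin reductase (Txnrd1), a selenoprotein, recharges thioredoxin with electrons from NADPH. Sulfiredoxin (Srxn1) rescues peroxiredoxins whose cysteine has been oxidised too far. Pgd, the phosphogluconate dehydrogenase of the pentose phosphate pathway, supplies NADPH, Nqo1 reduces quinones, and Hmox1, the inducible heme oxygenase, cuts heme into biliverdin, iron and carbon monoxide. All 7 are known targets of the transcription factor NRF2 (gene Nfe2l2), which KEAP1 holds back until reactive chemicals modify its cysteines, while BACH1 represses several of the same genes.

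In GRCm38.p6 RefSeq places Hmox1 at chr8:75093618-75100593, Nqo1 at chr8:107388225-107403205, Txnrd1 at chr10:82833951-82897724 and Srxn1 at chr2:152105524-152111376. The other 3 members lie on chromosome 4, Txn1 at chr4:57943373-57956411, Prdx1 at chr4:116685599-116700000 and Pgd at chr4:149149991-149166705. The pseudogene Gm21399 is at chr8:129252925-129254339.

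NRF2 binds antioxidant response elements together with small MAF proteins. The 250 bases before each annotated start were searched on both strands for 3 motifs, the element's core TGACNNNGC, its variant TGAGNNNGC, and TGAGTCA, which AP-1 factors also bind and which can overlap either of the others. The RefSeq promoter table (GRCm38.p6) held 9 windows for 6 members, all but Hmox1. A match was found in 3 of the 9 windows, 1 each of Srxn1, Prdx1 and Txnrd1, while 26% of 32851 windows of the same length hold at least 1 of the motifs. TGACNNNGC was in 2 of 9 windows (10.2% of all), TGAGNNNGC in 1 (14.4%) and TGAGTCA in 2 (4.46%). The 3 windows with a match are shown 5′ to 3′ on the strand of the gene, with every match on either strand in capitals.
Srxn1, chr2:152105274-152105523, plus strand: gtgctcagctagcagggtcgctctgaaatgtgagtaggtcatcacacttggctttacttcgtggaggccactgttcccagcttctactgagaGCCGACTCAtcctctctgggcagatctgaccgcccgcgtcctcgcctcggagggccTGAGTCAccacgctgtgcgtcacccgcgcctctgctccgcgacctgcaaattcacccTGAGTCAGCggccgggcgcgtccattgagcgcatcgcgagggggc
Prdx1, chr4:116685349-116685598, plus strand: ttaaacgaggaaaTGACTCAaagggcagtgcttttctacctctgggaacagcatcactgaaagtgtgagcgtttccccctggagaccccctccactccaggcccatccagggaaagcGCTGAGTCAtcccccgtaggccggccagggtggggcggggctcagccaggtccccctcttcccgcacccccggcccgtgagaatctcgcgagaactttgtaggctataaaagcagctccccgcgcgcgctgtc
Txnrd1, chr10:82858956-82859205, plus strand: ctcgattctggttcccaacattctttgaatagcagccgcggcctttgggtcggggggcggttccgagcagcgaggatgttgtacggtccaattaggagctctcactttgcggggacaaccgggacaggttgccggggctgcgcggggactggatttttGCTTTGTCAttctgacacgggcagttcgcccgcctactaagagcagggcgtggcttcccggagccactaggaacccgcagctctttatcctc

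The Srxn1 window holds matches in 3 places. The nearest begins 45 bases before the start, where TGAGTCA lies within TGAGNNNGC. The Prdx1 window holds 2 places, and in the one that ends 125 bases before the start TGAGTCA overlaps TGACNNNGC of the other strand. The Txnrd1 window, at the second of 3 annotated starts, holds TGACNNNGC once, on the other strand, 92 to 84 bases before the start. The windows of Txn1, Pgd and Nqo1 hold none of these motifs, and bases outside the windows were not searched. A match describes the sequence only.

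The arrays were alike in overall intensity, with the unexposed one set slightly apart. Deposited intensities had medians between 97.7 units, on the unexposed array, and 108 units. Scaling each array to a common trimmed mean moved the unexposed array by a factor of 1.07. The factors of the exposed arrays lay between 0.970 and 0.993. Every difference from unexposed lungs uses the unexposed array. Scaled values under 77.7 units, the 40th percentile of all scaled values, were treated as a floor. A difference with the floor on 1 side is a bound, and with the floor on both sides no difference is given. Markers of lung were high in every pool, with Sftpc, the surfactant protein of type II cells, between 9138 and 9871 units and Scgb1a1, the secretoglobin of club cells, between 8005 and 10632 units. In whole lungs, fewer cells of a type and less RNA per cell cannot be told apart.

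Of the 11 member probe sets, 6 lay above the floor on all 4 arrays, namely those of Hmox1, Txnrd1 and Txn1, 1 of Pgd and both listed for Prdx1. A further 2 lay above it on some arrays, 1 each of Srxn1 and Nqo1. The remaining 3, the second probe sets of Srxn1, Nqo1 and Pgd, stayed below it on all 4.

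**Figure D1:**
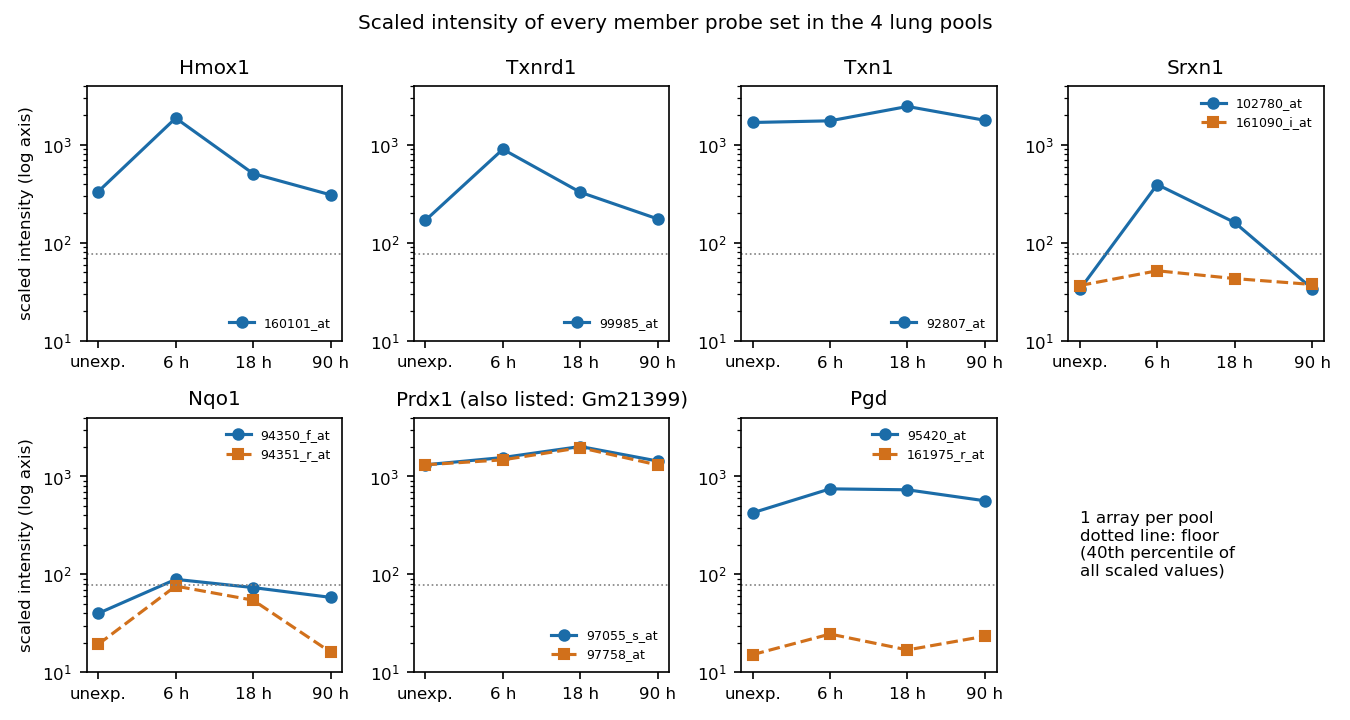
Scaled intensity (log axis) of each member probe set in the unexposed, 6, 18 and 90 h pools, with 1 point per array and the floor of 77.7 units as a dotted line. Hmox1, Txnrd1 and Srxn1 peak at 6 h, Txn1 and both Prdx1/Gm21399 probe sets peak at 18 h, and Pgd is level between 6 and 18 h.

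Hmox1, Txnrd1 and Srxn1 were more than 5-fold above the unexposed pool at 6 h. They are 3 of the 6 members with a probe set of their own, and among all 6285 genes above the floor on at least 1 array 131, or 2.08%, were at least 2-fold higher at that time. No member was 2-fold lower, against 1.45% of all genes. Ordered from the highest difference at 6 h, Hmox1 was number 9, Txnrd1 number 11 and Srxn1, by its bound, number 13 of the 6285 genes. The log2 differences at 6 h were 2.49 for Hmox1, 2.41 for Txnrd1 and at least 2.35 for Srxn1. Those of Pgd, Nqo1 and Txn1 were 0.81, at least 0.20 and 0.06. The median of the 6, 1.58 against -0.04 over all genes compared, falls in the gap between the Srxn1 bound and Pgd. The members were chosen with earlier results known, so neither the count nor the median is a test.

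Hmox1 read 335, 1881, 510 and 310 scaled units in the unexposed, 6, 18 and 90 h pools. The 6 h pool thus stood apart, and the 90 h pool was back beside the unexposed one. The log2 differences from unexposed lungs were 2.49 at 6 h, 0.61 at 18 h and -0.11 at 90 h, and the 18 h pool was 3.69-fold below the 6 h pool. The small difference at 90 h changed sign with the scaling and lay between -0.12 and 0.03 over the alternatives.

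Txnrd1, the reductase that recharges thioredoxin, read 170, 904, 329 and 176 units in the same order. It was 5.31-fold higher at 6 h and 1.93-fold higher at 18 h than in unexposed lungs, which leaves the 18 h value just short of 2-fold, though it passed 2-fold with values as deposited, at a log2 difference of 1.09. Its log2 difference at 90 h was 0.05. From 6 to 18 h it was 2.75-fold lower, a smaller step down than that of Hmox1. The difference between these steps has no replicate check.

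Srxn1, the repair enzyme of overoxidised peroxiredoxins, read 33.5, 395, 162 and 34.3 units by its probe set 102780_at. Only the 6 and 18 h pools were above the floor, so the differences from unexposed lungs are bounds of at least 5.08-fold at 6 h and at least 2.08-fold at 18 h. The 6 and 18 h pools were both measured, with the 18 h pool 2.44-fold lower. The second probe set, 161090_i_at, whose suffix marks a probe set outside the standard design rules, read 36.7, 52.0, 43.3 and 37.7 units, below the floor throughout, and gives no difference. Srxn1 was the only member past 2-fold at 18 h, where 1.53% of all genes were higher by as much. It was under 2-fold there when the 60th percentile was the floor, at a log2 difference of 0.23, and when both its probe sets were averaged, at 0.53.

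Between 6 and 18 h Hmox1, Txnrd1 and Srxn1 were all at least 2-fold lower, against 1.11% of all genes, and no member was 2-fold higher, against 1.13%. Between 18 and 90 h Srxn1 alone was at least 2-fold lower, again as a bound, against 0.907% of all genes, and Txnrd1 was 1.87-fold lower. No member was 2-fold higher at 90 h than at 18 h, against 0.859%. At 90 h no member was 2-fold above or below unexposed lungs, against 0.7% and 0.891% of all genes, and the median over the 4 members compared was 0.06, against 0.03 over all genes. At 18 h, too, 0 members were 2-fold below unexposed lungs, against 0.907% of all genes.

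**Figure D2:**
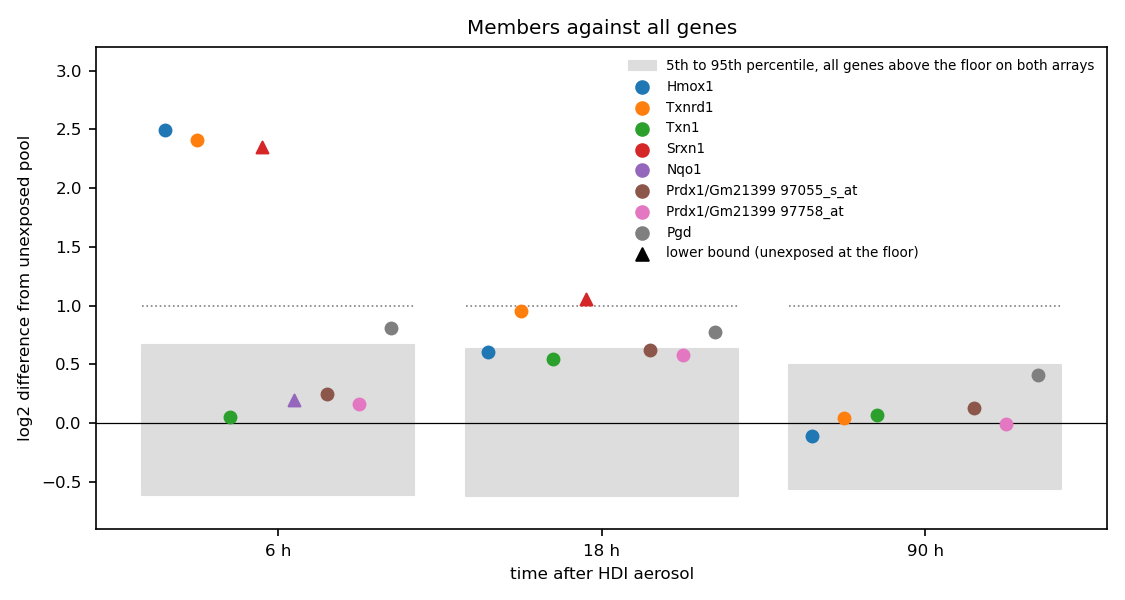
Log2 difference of each member from the unexposed pool at 6, 18 and 90 h, with grey bands for the 5th to 95th percentile of genes above the floor on both arrays and a dotted line at 2-fold. Hmox1, Txnrd1 and the bound for Srxn1 stand between 2.35 and 2.49 at 6 h, and all members measured at 90 h lie inside the band.

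Thioredoxin itself followed another course than its reductase. Txn1 read 1697, 1765, 2473 and 1786 units in the unexposed, 6, 18 and 90 h pools. The 18 h pool was the highest, while the 6 and 90 h pools were close to unexposed lungs. Its log2 differences from unexposed lungs were 0.06, 0.54 and 0.07 at 6, 18 and 90 h, and the 18 h pool was 1.40-fold above the 6 h pool. As a yardstick, the spread of 1 probe set was estimated from pairs of probe sets of the same gene. Only probe sets without a suffix and above the floor on both arrays were used. Scaled to 1 probe set, the robust SD was 0.28 log2 units at 6 and at 18 h and 0.24 at 90 h. This yardstick leaves out differences between animals, pools and hybridisations. The Txn1 difference at 18 h was larger than that yardstick, yet 487 of 6285 genes stood at or above it.

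The 2 probe sets that list Prdx1 with Gm21399 were, like Txn1, highest at 18 h. Probe set 97055_s_at read 1316, 1561, 2023 and 1437 units, and 97758_at read 1317, 1478, 1968 and 1311 units, so the pair agreed closely. Their log2 differences from unexposed lungs were 0.25 and 0.17 at 6 h, under the yardstick, and 0.62 and 0.58 at 18 h, above it. The Prdx1 and Srxn1 windows shown above both hold TGAGTCA, and whether these matches act in lung was not tested. From 6 to 18 h the Prdx1/Gm21399 probe sets were 1.30-fold and 1.33-fold higher. At 90 h they stood at 0.13 and -0.01, the second of which was positive, at 0.14, with values as deposited. At 18 h both lay inside the central range of all genes, whose 95th percentile was 0.63.

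Pgd, the NADPH supplier, read 426, 748, 731 and 565 units by probe set 95420_at. The 6 and 18 h pools were level and both above unexposed lungs, by 1.76-fold and 1.72-fold, above the 95th percentile of genes measured on both arrays at either time. The 90 h pool was 1.33-fold above unexposed lungs, the highest remaining difference among the members at that time, at a log2 value of 0.41 against a yardstick of 0.24. The other Pgd probe set, 161975_r_at, lay between 15.2 and 24.6 units.

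Nqo1 was near or below the floor throughout, so little can be said of its size. Its brighter probe set, 94350_f_at, read 40.1, 89.1, 73.5 and 58.3 units, and only the 6 h value passed the floor, which gives at least 1.15-fold. The dimmer one, 94351_r_at, read 19.4, 76.1, 54.6 and 16.1 units. The bound for the first became a log2 difference of 0.96 when the 25th percentile was taken as floor. Both suffixes mark probe sets outside the standard design rules, for possible cross-hybridisation or relaxed probe selection.

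By the highest of the 4 pools, the members with a probe set of their own fell into 5 with their maximum at 6 h (Hmox1, Txnrd1, Srxn1, Nqo1 and Pgd) and 1 at 18 h (Txn1). For Pgd the 6 and 18 h pools were within 1 unit of each other before scaling, at 753 units each. Of all genes 24.8% had their maximum at 6 h and 21.4% at 18 h. No member was highest in unexposed lungs or at 90 h, where 27.8% and 26% of all genes were.

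The genes most like the 3 strongest members were searched among 5083 genes above the floor on all 4 arrays, by the Euclidean distance over the 3 log2 differences from unexposed lungs. These differences share the unexposed array, and 4 arrays allow many genes to look alike. Srxn1, above the floor on only 2 arrays, could not be listed as a neighbour of the others. By its floored values it lay 0.13 from Txnrd1 and 0.49 from Hmox1. Both distances depend on where the floor was set, since Srxn1 has no measured difference from unexposed lungs. When the 25th percentile served as floor, its log2 differences became 3.11 at 6 h and 1.82 at 18 h. A 60th percentile floor gave 1.52 and 0.23. Txnrd1 stayed at 2.41 and 0.95 under either floor. Closeness of Srxn1 to Txnrd1 is thus not established. For Hmox1 the nearest gene was Txnrd1 (distance 0.39 log2 units), followed by Ddit4, a stress-induced inhibitor of mTOR signalling (0.74), and Errfi1, a feedback inhibitor of the epidermal growth factor receptor (0.76). For Txnrd1 the nearest were Hmox1, Gclc, the catalytic subunit of the enzyme that starts glutathione synthesis (0.54), and Errfi1 (0.54). For Srxn1, by values floored at 77.7 units, the nearest were Txnrd1 (0.13), Hmox1 (0.49) and Errfi1 (0.52). Gclc read 213, 1496, 501 and 255 units and Errfi1 was 3.75-fold higher at 6 h and 1.90-fold at 18 h than in unexposed lungs.

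**Figure D3:**
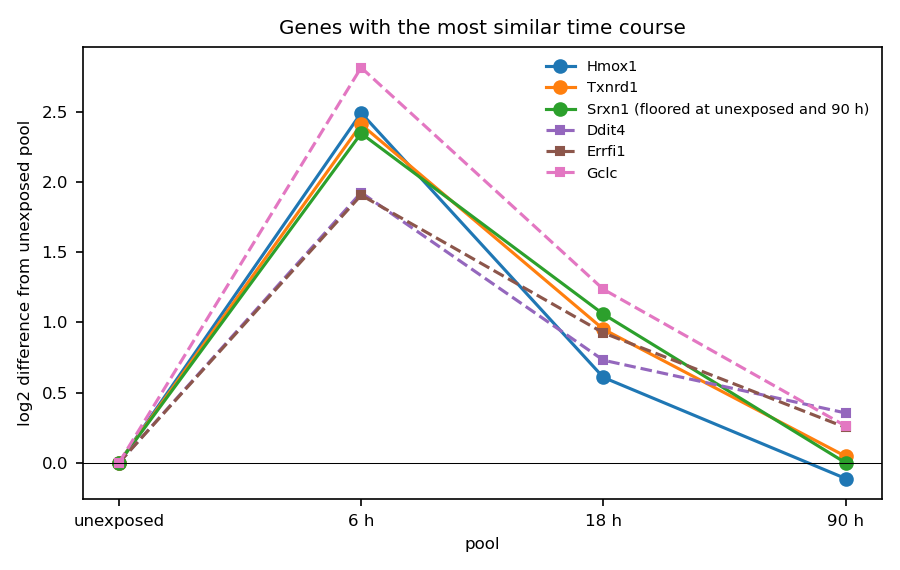
Log2 difference from the unexposed pool (set to 0) by pool for Hmox1, Txnrd1 and Srxn1 (solid lines) and for the other genes with the nearest time course, Ddit4, Errfi1 and Gclc (dashed lines). All are highest at 6 h, at 1.91 to 2.81, and lower at 18 h, where they lie between 0.61 and 1.24. Srxn1 is drawn at its lower bounds at 6 and 18 h. At 90 h it is drawn at 0, where both pools were at the floor and no difference is given. The dashed genes were chosen for their likeness to the solid ones.

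Of 17 partners in the thioredoxin system compared at 6 h, 1 was at least 2-fold higher and 0 lower (median 0.11). At 18 h the counts were again 1 and 0 (median -0.01). Of all genes, 2.08% were higher and 1.45% lower by as much at 6 h, and 1.53% and 0.907% at 18 h. Sesn1, a sestrin induced by p53, was 2.63-fold higher at 6 h. Glrx, the glutaredoxin that uses glutathione, was 2.05-fold higher at 18 h. Txnl1, a thioredoxin-like protein bound to the proteasome, was 1.97-fold and 1.86-fold higher at 6 and 18 h. Txnip, which binds and inhibits thioredoxin, read 809, 1117, 471 and 633 units, so it was highest at 6 h and lowest at 18 h, the pool with the most Txn1. Txnrd2 and Txn2, the mitochondrial reductase and thioredoxin, were chosen after their values were seen: their log2 differences at 6 h were -0.78 and -0.29. The other peroxiredoxins compared, Prdx2, Prdx3 and Prdx4, had log2 differences of -0.40, -0.12 and -0.22 at 6 h and 0.16, 0.50 and 0.46 at 18 h, with none past 2-fold.

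Among genes of heme and iron none was 2-fold above unexposed lungs at 6 or 18 h. Of all genes, 2.08% and 1.53% were higher by as much at these times, and 1.45% and 0.907% were lower. In lists this short, a count of 0 is near those shares. Of 12 heme breakdown and iron genes compared at 6 h, 0 were 2-fold higher and 1 lower, with a median of -0.07, and the median over 13 at 18 h was 0.04. Ltf, lactoferrin, was the lower one, 2.93-fold at 6 h. Cp, the ferroxidase ceruloplasmin, had log2 differences of -0.17 at 6 h and 0.58 at 18 h, Slc11a2, an iron transporter, -0.42 and -0.49, and Hfe, a regulator of iron uptake, -0.37 or lower, a bound, and -0.28. Of 8 heme synthesis genes, 0 were higher and 1 lower at both times, with medians of 0.10 at 6 h and 0.20 at 18 h. These medians turned to -0.16 and -0.08 without probe sets that carry a suffix for possible cross-hybridisation or relaxed probe selection. The lower gene, Ppox, read 175, 77.7, 69.8 and 69.9 units by a probe set with such a suffix. Alas2, the first enzyme of heme synthesis in red cell precursors, was 1.82-fold higher at 6 h, and Fech and Cpox, later enzymes of the pathway, had log2 differences of 0.77 and 0.49, all by probe sets with such a suffix.

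Among 11 other genes of NADPH supply none passed 2-fold, with medians of 0.15, 0.18 and 0.21 at 6, 18 and 90 h. In a list this short, a count of 0 is near the shares of all genes, of which 2.08%, 1.53% and 0.7% were higher. At 18 h 10 of the 11 were above 0, where 48.2% of all genes compared were. Some were barely so, among them Idh2 at 0.006 and Idh1 at 0.03, and the 0.06 of G6pd2 is a bound. Taldo1 and Tkt, of the non-oxidative pentose phosphate branch, had log2 differences of 0.27 and 0.14 at 6 h and 0.94 and 0.67 at 18 h. Me1, malic enzyme, stood at 0.49 and 0.69, and H6pd, which makes NADPH in the endoplasmic reticulum, at 0.45 and 0.29. Unlike Pgd, Taldo1 and Tkt were thus higher at 18 h than at 6 h in these arrays, a difference that has no replicate check.

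The regulators of NRF2 had a median of 0.37 at 6 h in 11 genes and of 0.07 at 18 h in 10 genes. At 6 h 1 was at least 2-fold higher and 0 lower, against 2.08% and 1.45% of all genes. The median at 6 h was 0.19 with probe sets averaged, and 0.50 with a 60th percentile floor. Sqstm1, the autophagy receptor that binds KEAP1 and is itself an NRF2 target, was 2.12-fold higher at 6 h. Bach1, the repressor of Hmox1, read 186, 310, 200 and 254 units, a log2 difference of 0.73 at 6 h. Mafk, a small MAF partner of NRF2 and BACH1, had one of 0.65. Nfe2l2 read 410, 383, 639 and 488 units and was highest at 18 h, after the maximum of Hmox1, Txnrd1 and Srxn1.

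Of 17 other NRF2 targets compared at 6 h, 3 were at least 2-fold higher and 0 lower (median 0.45). Of 16 at 18 h, the counts were 2 and 0 (median 0.49). Over all genes, 2.08% and 1.53% were higher by as much at 6 and 18 h. The higher targets at 6 h were the glutathione enzymes Gclc (7.03-fold), Gclm (at least 3.32-fold) and Gsr (2.76-fold). Those at 18 h were Gclc (2.35-fold) and Gsr (2.19-fold). Aldh3a1, an aldehyde dehydrogenase, was 1.97-fold higher at 18 h. At 90 h the median over 15 genes was -0.25, with none past 2-fold. That median turned to 0.23 without suffixed probe sets, and a 25th percentile floor gave -0.07, a 60th percentile floor -0.04. The 4 genes of superoxide dismutases and catalase had medians of -0.23, -0.25 and -0.20 at 6, 18 and 90 h, with none past 2-fold. Sod2, the mitochondrial enzyme, stood at 0.73 at 18 h, while Cat, Sod3 and Sod1 stood at -0.50, -0.37 and -0.14.

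**Figure D4:**
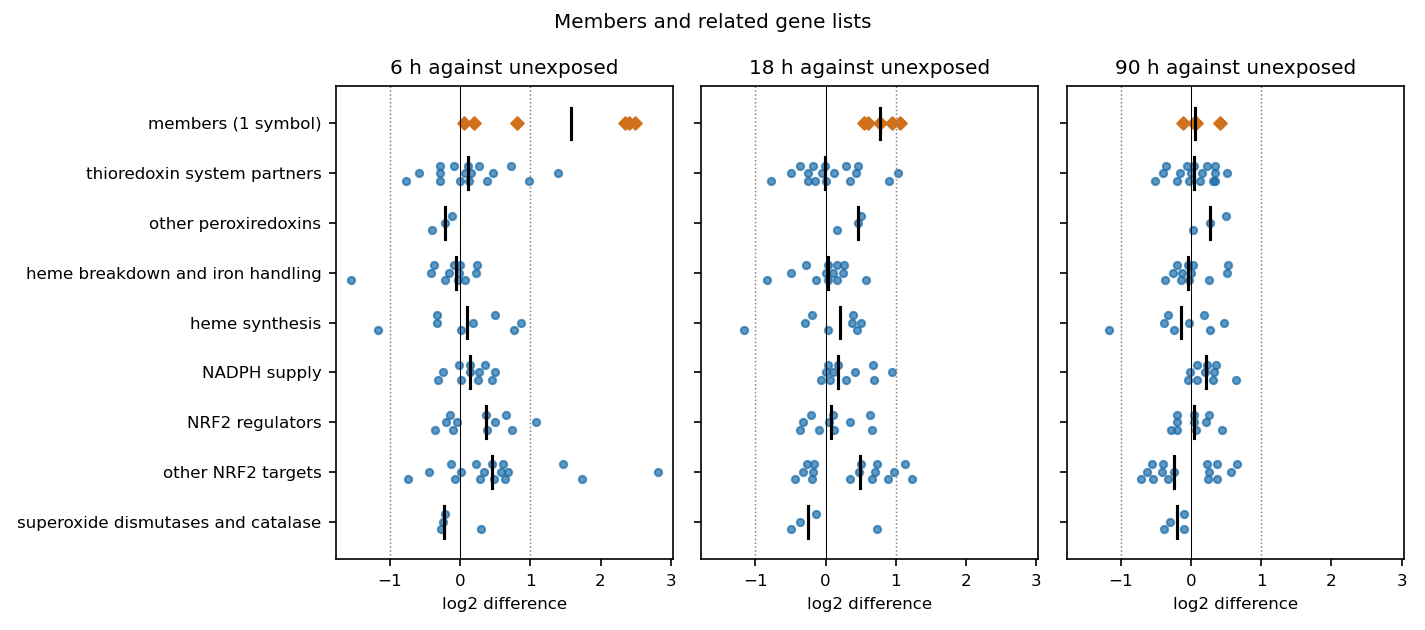
Log2 difference from the unexposed pool at 6, 18 and 90 h for the members with 1 gene symbol (diamonds) and for each gene of 8 related lists (points), with a black bar at each median and dotted lines at 2-fold in either direction. At 6 h the member median is 1.58, in a gap between Srxn1 (at least 2.35) and Pgd (0.81). The highest list median is 0.45, that of the other NRF2 targets, a list that holds Gclc at 2.81. Members and lists were chosen with earlier results known, so their contrast is not a test.

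Marker genes of cell types that whole lung or adjoining tissue could hold were set beside these values. Of 67 marker genes in 8 lists 53 were on the array, and 0 of them had a deposited value of 0 on any array. The shares of all genes at least 2-fold above unexposed lungs were 2.08%, 1.53% and 0.7% at 6, 18 and 90 h. Those at least 2-fold below were 1.45%, 0.907% and 0.891%. Hmox1 is abundant in macrophages. The 11 macrophage markers on the array summed to 4494, 3786, 4005 and 5733 units in the unexposed, 6, 18 and 90 h pools. Lyz2 alone read 2985, 2324, 2268 and 3078 of these units. None was 2-fold away from unexposed lungs at 6 h, where the median log2 difference was 0.05. At least 2-fold higher were 1 of 8 at 18 h and 3 of 9 at 90 h. The one at 18 h was Cd14 (2.13-fold), and those at 90 h were Ctsk (at least 3.10-fold), Chil3 (2.16-fold) and Mrc1 (2.04-fold). Neutrophil markers summed to 1818, 1641, 1462 and 1938 units, and 1 of 9 compared at 6 h was 2-fold lower (Ltf, also in the iron list). Red blood cell markers, which share Alas2 with heme synthesis, summed to 8693, 9010, 8190 and 6664 units, mostly Hba-a1, at 8193, 8227, 7510 and 6205. Of 4 compared, 1 was at least 2-fold higher at 6 and at 18 h, Ank1, by a probe set with a suffix, and 1 was lower at 90 h, Epb42, at least 2.09-fold.

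Club cell markers summed to 17698, 15304, 13215 and 13670 units in the same order, and 1 of 4, Cckar, was 2-fold lower at 6 and 18 h. Type II cell markers summed to 15232, 14735, 15863 and 15021 units and type I cell markers to 11339, 10896, 10375 and 10074 units, with none past 2-fold in either list. Fat cell markers summed to 927, 1863, 990 and 838 units, a sum highest at 6 h like the leading members. Of 5 compared at 6 h, 1 was at least 2-fold higher than in unexposed lungs, Fabp4 (2.74-fold). Lpl was 1.87-fold higher, while Lep read 186, 195, 205 and 162 units and was highest at 18 h. Muscle markers summed to 3860, 4187, 3520 and 2572 units, with 2 of 8 at least 2-fold higher at 6 h, Acta1 and Myl1, both bounds. Acta1 read 7.25 units in the unexposed pool and 611 units at 6 h, a larger rise than that of the sum. Ckm and Mb had log2 differences of 0.39 and 0.22 at 6 h. Those of Actc1, Myh6, Tnni3 and Tnnt2 were negative, at -0.42, -0.26, -0.12 and -0.05. Acta1 was still at least 5.05-fold higher at 18 h, and Mb was 4.24-fold lower at 90 h. The part of these cells in the values of the members was not tested.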

How the data were processed

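Total RNA of 4 pools of whole mouse lung, 1 array each, was analysed. The authors deposited an intensity for every probe set on each array, on a linear scale. How these intensities were made (software, background correction, scaling) is not stated in the labels or the file. Detection calls were not used. Probe sets were named by the platform annotation, and a check of gene identifiers against RefSeq changed 0 symbols. Apart from controls there were 12422 probe sets, 10833 with 1 symbol, 396 with several and 1193 unlisted. Gene counts used the first kind, for 8251 genes.

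Arrays were scaled to 1 mean after trimming 2% at each end, values under the 40th percentile were raised to it, and log2 followed. The probe set with the highest mean stood for its gene. With 1 array per group no test was made, the number of arrays limits the precision, and genes were counted at 2-fold. The members and lists were chosen with earlier results of these data known. All members were named, as were up to 4 genes per pathway list with the largest difference at 6 or 18 h, any list gene past 2-fold from unexposed lungs, and the 3 genes nearest to each member past 2-fold. Alternatives were other scalings (none, median, quantile), floors at the 25th and 60th percentile, a pseudocount of 50, and the mean over probe sets. Further ones left out probe sets with a suffix for possible cross-hybridisation or relaxed probe selection, or used thresholds of 1.5-fold and 3-fold. The code, in Python 3.11.15 with numpy 2.4.6, pandas 2.3.3 and matplotlib 3.10.9, was tested on simulated data.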

Additional observations from a re-analysis of the deposited data

How the results depend on the processing

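Hmox1, Txnrd1 and Srxn1 were at least 2-fold above unexposed lungs at 6 h under all 8 alternatives of scaling, floor and probe set, with log2 differences of 2.33 to 2.60, 2.12 to 2.52 and 1.17 to 3.11. The count of members at least 2-fold higher at 18 h, 1 in the values reported, was 0 with the floor at the 60th percentile, with probe sets averaged and at 3-fold, 2 with values as deposited, and 4 at 1.5-fold. The count of members 2-fold lower at 18 h than at 6 h, 3 as reported, was 2 with probe sets averaged and 1 at 3-fold. Between 18 and 90 h the count of lower members, 1 as reported, was 0 with the floor at the 60th percentile, with probe sets averaged and at 3-fold, and 3 at 1.5-fold. Averaging lowered Srxn1 and Pgd by construction, since their second probe sets were at the floor. Nqo1 had no value at 6 h with the floor at the 60th percentile or without suffixed probe sets. Of 154 member differences recomputed, 12 moved by more than the yardstick between probe sets. Of 192 pathway list medians recomputed, 38 moved by over 0.1, and 7 of the 24 medians changed sign under at least 1 of the 8 alternatives.

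Counts over all genes depended on the floor. With it at the 25th percentile 153 genes in place of 96 were 2-fold higher at 18 h, 91 in place of 44 at 90 h, and 87 in place of 56 were lower at 90 h. With it at the 60th, 22 were higher at 90 h, and 47, 29 and 25 in place of 91, 57 and 56 were lower at 6, 18 and 90 h. A pseudocount gave 29 and values as deposited 32 lower genes at 18 h. Averaged probe sets gave 36 and unsuffixed ones 35 lower genes at 90 h. Over all genes, values as deposited gave a median log2 difference of 0.12 at 18 h and 0.17 at 90 h in place of -0.01 and 0.03. The share of higher genes among those past 2-fold was then 81.6% in place of 62.7% at 18 h and 61.2% in place of 44% at 90 h. No paired analysis was possible because each group is 1 pool.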
